A study of Rattus norvegicus with 30 samples.

Results

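The circadian clock genes described here are 10 genes of the deposited rat kidney table, chosen by symbol: *Arntl* (also called *Bmal1*), *Clock*, *Npas2*, *Per1*, *Per2*, *Per3*, *Cry1*, *Nr1d1*, *Nr1d2* and *Dbp*. All 10 were found among the 32545 genes of the table, and all 10 passed the filter on low counts in every comparison. Poly(A) RNA was sequenced from the cortex (Cx) and the outer medulla (OM) of the right kidney of male Sprague-Dawley rats, an outbred strain without a known genetic lesion, in 6 groups of 5 libraries. The LS rats ate 0.4% NaCl in a purified AIN-76A diet, and the HS14 and HS21 rats were switched from it to 4.0% NaCl for 14 and 21 d. No group carried a transgene, a drug or a surgical lesion that the labels name. The rats were kept in a light and dark cycle, ate freely, and were anesthetized for tissue collection at what the study calls the same time of day. That hour is not given in the sources used here, and neither is the age of these rats. The clock time of each library is therefore unknown, and that it was equal in all of them rests on the study's statement. Any difference in hour between the groups could not be told apart from diet. Diet and time since the switch, with any difference in age that goes with it, cannot be told apart.

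The mammalian clock is a transcriptional loop that runs in nearly every cell, kidney tubule cells included. ARNTL pairs with CLOCK, or with its paralog NPAS2, and the pair activates genes through E-box elements, among them the Per and Cry genes, whose proteins return to block the pair, and *Nr1d1*, *Nr1d2* and *Dbp*. The nuclear receptors NR1D1 and NR1D2 (REV-ERB alpha and beta) repress *Arntl* and other genes through ROR elements. DBP activates genes through D-box elements. *Arntl* and many of the E-box driven genes therefore peak at nearly opposite times of day. In the kidney this loop is known for daily rhythms of sodium and water excretion and of tubular transporters.

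Promoter windows were read because these elements tie the members to each other. RefSeq (assembly GRCr8) gave 11 windows, each from 250 bases before to 50 bases after a transcription start, for 9 of the 10 members. Of 4 elements searched on both strands, namely the E-box CACGTG, the D-box TTATGNAA, a ROR element (A, any 2 bases, T, any base, then GGTCA) and the cAMP response element TGACGTCA, 3 windows held 1 match each. The bases upstream of *Arntl*, which RefSeq lists as *Bmal1*, at chr1:176766078-176766327 on the plus strand, held a ROR element whose first base lay 19 bases upstream of the start. Those of *Per2*, at chr9:99496994-99497243 on the minus strand, held a D-box that began 192 bases upstream. Those of the second of 2 *Nr1d1* starts, at chr10:84229455-84229704 on the minus strand, held an E-box that began 191 bases upstream. The 250 upstream bases of these windows are shown with the matched element in capitals.
Arntl: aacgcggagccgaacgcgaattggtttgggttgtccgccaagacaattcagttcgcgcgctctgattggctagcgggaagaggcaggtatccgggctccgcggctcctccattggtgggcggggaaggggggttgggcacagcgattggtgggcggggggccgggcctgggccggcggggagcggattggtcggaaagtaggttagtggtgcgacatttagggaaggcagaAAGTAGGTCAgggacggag
Per2: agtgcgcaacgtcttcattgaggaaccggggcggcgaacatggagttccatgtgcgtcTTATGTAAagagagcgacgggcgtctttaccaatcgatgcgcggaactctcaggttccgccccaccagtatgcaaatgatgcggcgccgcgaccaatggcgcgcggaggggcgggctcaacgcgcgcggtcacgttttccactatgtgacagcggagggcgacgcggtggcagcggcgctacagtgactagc
Nr1d1: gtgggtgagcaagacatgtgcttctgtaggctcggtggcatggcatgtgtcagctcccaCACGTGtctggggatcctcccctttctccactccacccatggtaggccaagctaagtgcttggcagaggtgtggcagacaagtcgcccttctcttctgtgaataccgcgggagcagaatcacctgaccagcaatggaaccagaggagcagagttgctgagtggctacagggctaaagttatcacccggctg
Among all 33469 windows of that table, 6.42% held the E-box, 3.66% the D-box, 2.73% the ROR element and 1.83% the cAMP response element. A match of these letters is a description of the window and does not show a bound site. Only exact matches were searched, so a window without a match may still hold a variant of an element.

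Between 5408126 and 21842843 reads per library were counted on genes, and the members had from 17 (*Npas2* in 1 OM HS21 library) to 5609 counts (*Dbp* in 1 Cx HS21 library). Replicate 10 of OM HS14 was the shallowest library, and the next lowest total was 12748841. The 6 proximal tubule markers summed to 14599 to 16176 CPM (counts relative to the TMM-scaled library total) in Cx LS, to 11030 to 15017 in Cx HS14 and to 8691 to 11860 in Cx HS21, with *Slc34a1*, *Slc5a2*, *Slc5a12*, *Lrp2*, *Slc22a6* and *Slc7a13* in the list. The 6 leukocyte markers summed to 844 to 997, 942 to 1399 and 1168 to 3150 CPM in the same groups, and 5 of the 6 proximal tubule markers fell and all 6 leukocyte markers rose at HS21 against LS. In OM, where 3 thick ascending limb markers summed to 9880 to 20857 CPM against 1175 to 2805 in Cx, the proximal tubule sum ran from 1417 to 16546 CPM on LS, and its highest library was replicate 2. In such bulk tissue fewer cells of a type and less RNA per cell cannot be told apart, and the part of these markers in the results below was not tested.

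Per base of transcript, *Dbp* was the most abundant member and *Cry1*, *Npas2* and *Arntl* were the least. In Cx LS the mean FPKM (fragments scaled by transcript length and depth, as deposited) was 140 ± 26.0 (SD, n = 5) for *Dbp*, 46.1 ± 6.13 for *Nr1d1*, 39.0 ± 3.0 for *Nr1d2*, 21.9 ± 4.69 for *Per2*, 19.0 ± 1.36 for *Clock*, 13.9 ± 3.96 for *Per1* and 12.6 ± 1.48 for *Per3*. The remaining 3 lay at 3.55 ± 1.78 for *Arntl*, 3.24 ± 1.24 for *Npas2* and 2.54 ± 0.91 for *Cry1*. Within this order the ranges of *Nr1d1* and *Nr1d2* overlapped, as did those of *Per2*, *Clock*, *Per1* and *Per3* from each gene to the next, and those of *Arntl*, *Npas2* and *Cry1*. Gaps without overlap lay between *Dbp* and *Nr1d1*, between *Nr1d2* and *Per2* and between *Per3* and *Arntl*. *Dbp* had the highest mean in all 6 groups, and the lowest was *Cry1* in Cx LS and Cx HS14 and *Npas2* in the other 4 groups.

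**Figure D1:**
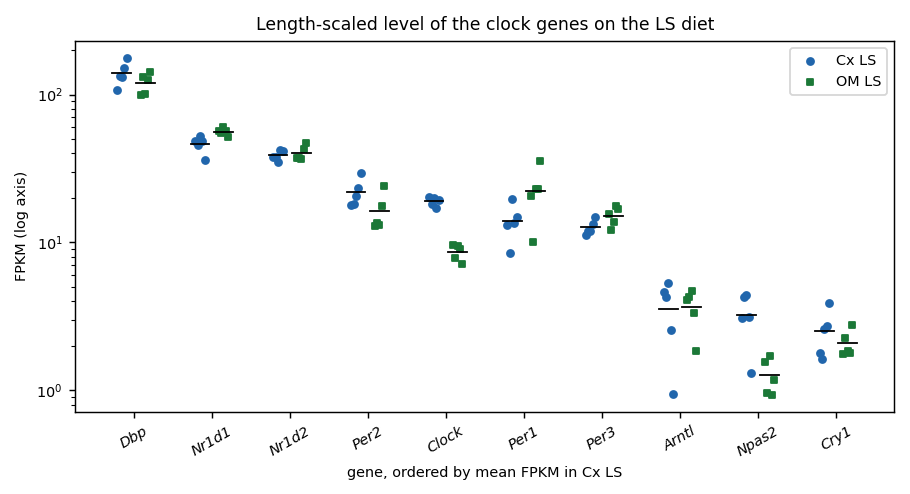
FPKM on a log axis for each clock gene in the 5 Cx LS (circles) and 5 OM LS libraries (squares), ordered by the Cx mean, with lines at the group means. Dbp stands highest at 108 to 178 FPKM in Cx, and Clock is the gene whose Cx and OM points lie furthest apart relative to their spread.

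In Cx, the share of clock genes called stood above that of all genes at HS21 against HS14, and nearer to it at HS21 against LS. The activators *Arntl*, *Clock* and *Npas2* were lower at HS21 than at HS14 and the repressors *Per2* and *Per3* were higher, which makes 5 of 10 members called by edgeR's quasi-likelihood test (adjusted *P* under 0.05) against 16.2% of the 14395 genes tested. In each of these 5 genes the libraries of the 2 groups did not overlap, which held for 9.66% of all genes. Against LS the same 5 genes were called at HS21, with 3 lower and 2 higher, but there the background was 39.4% of 14299 genes, and *Clock* was the one member without overlap, against 26.6% of all genes. At HS14 none of the 10 was called against LS, where 2.33% of 14181 genes were called, although 3 members (*Per3*, *Nr1d1* and *Dbp*, each lower) had an unadjusted *P* under 0.05, against 17.4% of all genes. DESeq2's Wald test called none of the 10 there either, against 6.49% of all genes. Both HS groups were compared with the same 5 LS libraries, and the comparison of HS21 with HS14 reuses the HS libraries, so the 3 comparisons are not independent. Scaling mattered for direction over all genes: of all genes called, 47.9% were higher at HS21 than on LS and 40.1% higher than at HS14 with TMM, against 72.7% and 76.4% with total-count scaling, which put the median gene 0.13 higher (log2) in both. The 5 members kept their directions under either scaling.

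**Figure D2:**
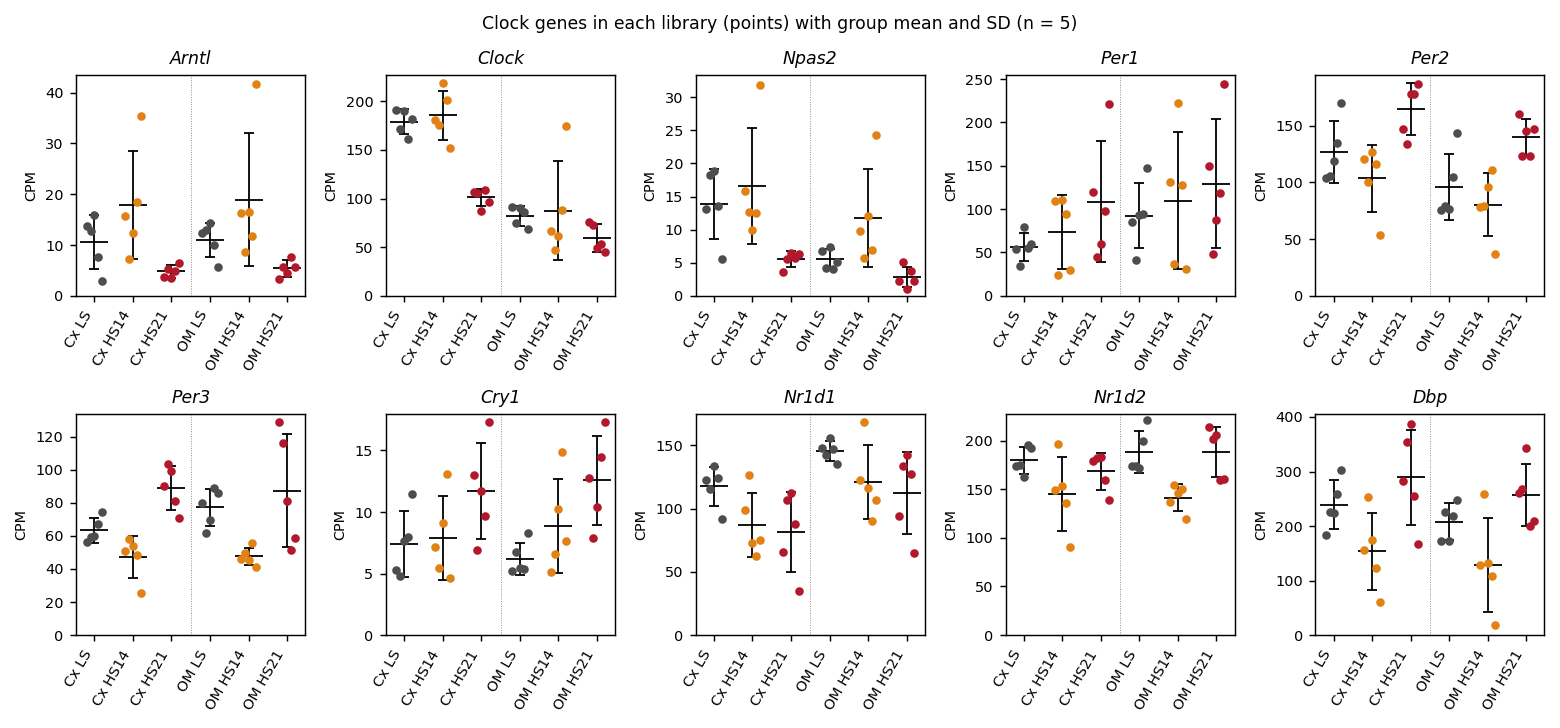
CPM of each clock gene in all 30 libraries (points), with the mean and SD of each group of 5 as bars, for LS (grey), HS14 (orange) and HS21 (red) in Cx and OM. The lowered Arntl, Clock and Npas2 and the raised Per2 and Per3 at Cx HS21 do not overlap with Cx HS14.

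*Clock*, which encodes the histone acetyltransferase partner of ARNTL, had the smallest adjusted *P* of the members in both Cx comparisons with HS21. Its level was 191, 172, 190, 161 and 182 CPM in the 5 Cx LS libraries, 181, 175, 219, 201 and 152 at HS14 and 107, 105, 87.2, 109 and 96.9 at HS21. Every HS21 library lay below every library of the other 2 groups, which overlapped with each other. The log2 ratio of HS21 to LS was -0.83 ± 0.07 (SE; adjusted *P* = 1.90e-05, edgeR), and that of HS21 to HS14 was -0.87 ± 0.10 (adjusted *P* = 0.00173, edgeR). Both calls held in each of the 10 fits that left out 1 library, with log2 ratios of -0.86 to -0.78 and -0.94 to -0.81. A two-sided exact permutation test over all regroupings gave 0.00794 for both, the smallest value that 5 against 5 libraries can give. Against HS14 this test, without adjustment, gave 0.00794 for *Arntl*, *Npas2*, *Per2* and *Per3* as well. Groups of 5 without overlap always give this value, so it repeats the lack of overlap and adds no further support. Against LS it gave 0.0159 for *Per3*, 0.0317 for *Npas2*, 0.0476 for *Per2* and 0.0873 for *Arntl*.

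*Npas2*, the paralog of *Clock*, was measured at 13.1, 18.2, 18.8, 13.5 and 5.58 CPM in Cx LS, 15.8, 12.7, 10.01, 12.6 and 31.9 at HS14 and 3.56, 5.58, 6.49, 5.75 and 6.32 at HS21. All HS21 libraries lay below all HS14 libraries, whereas the lowest LS library, replicate 5, lay inside the HS21 range. The log2 ratio was -1.32 ± 0.29 against LS (adjusted *P* = 0.00383, edgeR) and -1.58 ± 0.31 against HS14 (adjusted *P* = 0.0113, edgeR). With each library left out in turn the adjusted *P* stayed between 0.000293 and 0.0112 against LS and between 0.00212 and 0.0304 against HS14. Replicate 10 had the highest HS14 level, and without it the ratio to HS14 was -1.21 ± 0.19.

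*Arntl*, the shared partner of CLOCK and NPAS2, stood at 13.8, 12.7, 15.9, 7.64 and 2.82 CPM in Cx LS, 15.6, 7.35, 12.3, 18.5 and 35.5 at HS14 and 3.69, 5.38, 3.52, 4.97 and 6.46 at HS21. The HS21 libraries were the lowest as a group and did not overlap with HS14, but LS replicate 5 was lower than all of them. The log2 ratio of HS21 to HS14 was -1.90 ± 0.37 (adjusted *P* = 0.0113, edgeR), and -1.49 ± 0.27 without HS14 replicate 10, the highest library (adjusted *P* = 0.00407). Against LS it was -1.14 ± 0.38 (adjusted *P* = 0.0322, edgeR), though the exact permutation test gave 0.0873. That call against LS was lost without LS replicate 1, 2 or 3 or without HS21 replicate 11, 12, 13 or 14, with an adjusted *P* of up to 0.0816, and under total-count scaling at 0.0507.

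Among the repressors, *Per3* rose in Cx at HS21 against both groups. Its libraries gave 56.0, 59.3, 59.6, 67.0 and 74.5 CPM on LS, 50.8, 58.0, 54.1, 48.3 and 25.3 at HS14 and 90.4, 103, 99.0, 81.0 and 70.8 at HS21. All HS21 libraries exceeded all HS14 libraries, and only replicate 15 fell inside the LS range. The log2 ratio was 0.49 ± 0.11 against LS (adjusted *P* = 0.00418, edgeR) and 0.92 ± 0.19 against HS14 (adjusted *P* = 0.0121, edgeR). Both calls held with each of the 10 libraries left out, and without HS14 replicate 10, the lowest library, the second ratio was 0.75 ± 0.11.

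*Per2*, which encodes a repressor that also responds to hormones and feeding, rose by smaller ratios. Its levels were 104, 106, 119, 135 and 170 CPM in Cx LS, 121, 100, 127, 117 and 53.4 at HS14 and 147, 133, 178, 178 and 186 at HS21. HS21 and HS14 did not overlap, while LS overlapped with both. The log2 ratio was 0.68 ± 0.20 against HS14 (adjusted *P* = 0.0388, edgeR) and 0.37 ± 0.14 against LS (adjusted *P* = 0.0499, edgeR), so the second lay at the threshold. Without any of LS replicates 1 to 4 or HS21 replicates 13 to 15 the call against LS was lost, with an adjusted *P* of up to 0.116. The call against HS14 remained only without HS14 replicate 10 (0.50 ± 0.11, adjusted *P* = 0.00967) or HS21 replicate 12, and otherwise the adjusted *P* reached 0.0871.

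*Per1* and *Cry1* were not called in Cx. *Per1*, the repressor that light and glucocorticoids induce within hours, ranged from 34.5 to 79.4 CPM (median 54.9) in Cx LS, from 24.4 to 110 (median 94.2) at HS14 and from 44.3 to 222 (median 97.6) at HS21. Its log2 ratio at HS21 was 0.94 ± 0.38 against LS (adjusted *P* = 0.0674, edgeR) and 0.56 ± 0.50 against HS14 (adjusted *P* = 0.462). *Cry1*, whose protein binds the PER proteins, stood at 7.42 ± 2.67 CPM on LS, 7.88 ± 3.38 at HS14 and 11.7 ± 3.89 at HS21 (SD, n = 5), a log2 ratio to LS of 0.65 ± 0.27 (adjusted *P* = 0.0771, edgeR). *Per1* passed the threshold against LS without HS21 replicate 12 or 13, and *Cry1* without LS replicate 5 or HS21 replicate 12, with adjusted *P* down to 0.0200 and 0.0260.

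The nuclear receptors were not called in Cx. *Nr1d1* lay at 123, 115, 134, 124 and 92.2 CPM on LS, 98.6, 127, 72.7, 62.7 and 75.2 at HS14 and 66.1, 107, 112, 88.1 and 34.9 at HS21. All 3 groups overlapped, and replicate 15 of HS21 was the lowest library. The log2 ratio to LS was -0.44 ± 0.17 at HS14 (adjusted *P* = 0.205, edgeR; 0.0375 without HS14 replicate 7) and -0.53 ± 0.25 at HS21 (adjusted *P* = 0.117), and that of HS21 to HS14 was -0.09 ± 0.29 (adjusted *P* = 0.857). *Nr1d1* shares 1059 bases with *Thra* on the opposite strand, and since the libraries were not strand-specific, reads from the shared stretch cannot be assigned to either gene. No other member overlaps a listed gene. *Nr1d2* had 180 ± 14.0, 145 ± 38.1 and 168 ± 19.0 CPM on LS, at HS14 and at HS21 (SD, n = 5), with a log2 ratio of HS21 to LS of -0.10 ± 0.08 (adjusted *P* = 0.380, edgeR) and of HS21 to HS14 of 0.22 ± 0.16 (adjusted *P* = 0.361).

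*Dbp*, the output factor, had its lowest Cx levels at HS14. It was measured at 184, 226, 224, 259 and 303 CPM on LS, 156, 253, 174, 123 and 60.4 at HS14 and 283, 355, 387, 255 and 167 at HS21. In all, 4 of the 5 HS14 libraries lay below every LS library, and the groups overlapped in all 3 comparisons. The log2 ratio to LS was -0.65 ± 0.28 at HS14 (adjusted *P* = 0.260, edgeR) and 0.27 ± 0.20 at HS21 (adjusted *P* = 0.304; 0.0431 without HS21 replicate 15), and that of HS21 to HS14 was 0.93 ± 0.32 (adjusted *P* = 0.0708). The last was called without HS14 replicate 7 (adjusted *P* = 0.0462), and a fit of all 15 Cx libraries gave 0.0303.

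**Figure D3:**
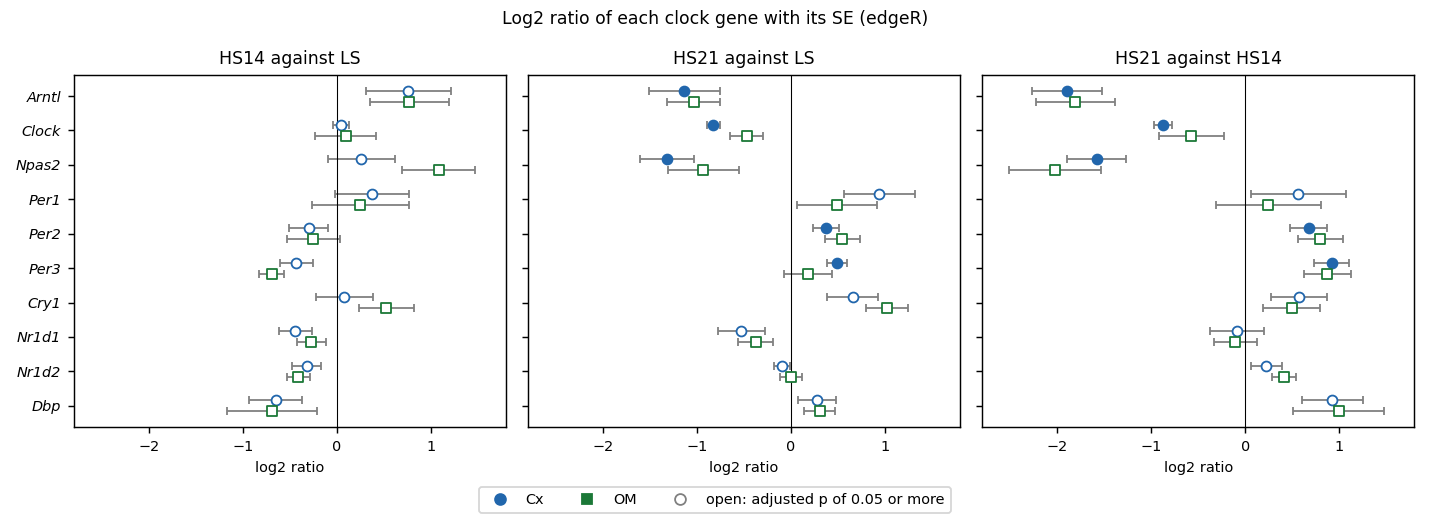
Log2 ratios of each clock gene with their SE for HS14 against LS, HS21 against LS and HS21 against HS14, in Cx (blue circles) and OM (green squares). Filled symbols passed an adjusted P of 0.05 in edgeR, and these are the 5 Cx genes at HS21 against either group.

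In OM no member was called in any of the 3 diet comparisons by edgeR, where few genes were called at all. At HS14 against LS the share over all genes was 0.00694% and at HS21 against LS 0.769%, and none of 14499 genes was called between HS21 and HS14. At an unadjusted *P* under 0.05 stood 3 members at HS14 against LS (*Npas2* higher, *Per3* and *Nr1d2* lower; background 5.73%), 5 at HS21 against LS (*Arntl*, *Clock* and *Npas2* lower, *Per2* and *Cry1* higher; background 11.2%) and 5 at HS21 against HS14 (*Arntl* and *Npas2* lower, *Per2*, *Per3* and *Nr1d2* higher; background 3.77%). DESeq2's Wald test called 2 members in each comparison, against 0.756%, 4.82% and 0.186% of all genes. These were *Per3* and *Nr1d2* (lower) at HS14, *Arntl* (lower) and *Cry1* (higher) at HS21, and *Arntl* and *Npas2* (lower) between HS21 and HS14.

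Without any overlap between groups were 4 members at HS21 against HS14 in OM, against 0.655% of all genes. *Arntl* was at 16.4, 8.54, 16.4, 11.8 and 41.6 CPM in OM HS14 and at 3.37, 5.67, 4.47, 7.72 and 5.77 at HS21. *Npas2* was at 9.82, 5.79, 12.1, 6.99 and 24.3 CPM and at 2.26, 5.04, 1.07, 3.77 and 2.29. All HS21 values of both activators were below the lowest HS14 value, and their highest HS14 value came from replicate 10, the shallow library. The log2 ratio was -1.81 ± 0.42 for *Arntl* and -2.02 ± 0.49 for *Npas2* (adjusted *P* = 0.961 for both, edgeR), and -1.29 ± 0.27 and -1.58 ± 0.40 without replicate 10. *Per2* was at 78.6, 79.5, 96.0, 111 and 37.0 CPM at HS14 and at 160, 123, 145, 123 and 147 at HS21, a log2 ratio of 0.80 ± 0.24. *Nr1d2* was at 137, 154, 146, 150 and 119 CPM at HS14 and at 214, 201, 205, 160 and 161 at HS21, a log2 ratio of 0.41 ± 0.12. For these 2 genes every HS21 library was above every HS14 library, with replicate 10 again at the end of the HS14 range.

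Against LS, OM *Cry1* came closest to a call. It was measured at 5.23, 6.75, 5.47, 5.34 and 8.26 CPM on LS, 5.15, 6.57, 10.2, 14.8 and 7.68 at HS14 and 12.8, 7.91, 10.4, 14.4 and 17.3 at HS21. Only replicate 12 of HS21 fell within the LS range, and the log2 ratio of HS21 to LS was 1.02 ± 0.22 (adjusted *P* = 0.0713, edgeR). OM *Arntl* had 11.03 ± 3.38 CPM on LS and 5.40 ± 1.63 at HS21 (SD, n = 5), a log2 ratio of -1.03 ± 0.28 (adjusted *P* = 0.135, edgeR), and without LS replicate 5 it was called with an adjusted *P* of 0.0441, as was *Per2* with 0.0419. At HS14, *Per3* was at 46.3, 49.7, 45.1, 55.6 and 41.4 CPM against 79.6, 61.6, 69.8, 89.0 and 86.0 on LS. These groups did not overlap, nor did those of *Nr1d2*, and no other member was without overlap there (background 1.53%). The log2 ratio was -0.70 ± 0.14 for *Per3* (adjusted *P* = 0.367, edgeR) and -0.41 ± 0.12 for *Nr1d2* (adjusted *P* = 0.565).

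Whether a diet change differed between Cx and OM was tested by the tissue by diet interaction over 20 libraries, with edgeR. No member passed at HS14 or at HS21, at background shares of 0% and 0.665%, and none had an unadjusted *P* under 0.05 in either, against 3.7% and 15.6% of all genes. DESeq2's Wald test called none of the 10 as well, against 0.0596% and 3.58% of all genes. A call in Cx and none in OM is therefore not shown to be a difference between the tissues.

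Between the tissues, *Clock* was lower in OM than in Cx in each diet group. The OM libraries gave 91.4, 74.8, 90.5, 86.0 and 68.8 CPM on LS, 66.7, 46.9, 61.4, 88.0 and 175 at HS14 and 75.7, 73.1, 48.9, 53.2 and 45.2 at HS21. On LS and at HS21 all OM libraries lay below all Cx libraries, and at HS14 the exception was replicate 10. Groups without overlap made up 29% and 24.9% of all genes on LS and at HS21. The log2 ratio of OM to Cx was -1.13 ± 0.10 on LS (adjusted *P* = 1.57e-05, edgeR; background 40.9%), -1.07 ± 0.33 at HS14 (adjusted *P* = 0.0294; background 28.7%) and -0.74 ± 0.15 at HS21 (adjusted *P* = 0.00346; background 31.8%). At HS14 it was -1.50 ± 0.18 without OM replicate 10, and the call there was lost without Cx or OM replicate 6, 8 or 9, with an adjusted *P* of up to 0.0682. On LS, *Npas2* was also lower in OM, with 6.76, 4.19, 7.44, 4.07 and 5.14 CPM and a log2 ratio of -1.33 ± 0.31 (adjusted *P* = 0.00675, edgeR), and *Nr1d1* was higher, with 148, 142, 156, 147 and 135 CPM and a log2 ratio of 0.30 ± 0.10 (adjusted *P* = 0.0298, edgeR) and no overlap.

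The other 7 members on LS, and 9 members at HS14 and at HS21, were not called between the tissues in these fits, which treat Cx and OM libraries as independent although both came from the same kidneys. With the replicate number as a block, 6 members were called on LS (background 35.1%), 2 at HS14 (25.3%) and 3 at HS21 (36.8%). Those gained were *Per1* (0.65, adjusted *P* = 0.0247), *Per2* (-0.43, adjusted *P* = 0.00818) and *Per3* (0.28, adjusted *P* = 0.0481) on LS, *Nr1d1* (0.49, adjusted *P* = 0.0179) at HS14, and *Per1* (0.31, adjusted *P* = 0.0142) and *Nr1d1* (0.54, adjusted *P* = 0.00436) at HS21, as log2 ratios of OM to Cx in edgeR. *Clock*, *Npas2* and *Nr1d1* on LS and *Clock* in the other groups were called with the block as well. Without it, the *Nr1d1* call on LS was lost in 7 of 10 fits without 1 library (all but those without Cx LS replicate 3 or OM LS replicate 2 or 5), with an adjusted *P* of up to 0.0768. Without OM LS replicate 2, the library with the highest proximal tubule sum, *Per1* (0.87 on the log2 scale, adjusted *P* = 0.00837) and *Per3* (0.34, adjusted *P* = 0.0185) were also called higher in OM, and 5 members in all. *Clock* and *Npas2* differed between the tissues in which proximal tubule and thick ascending limb markers differ, and the part of cell composition in their ratios was not tested.

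Within a group, several members spread far more between libraries than most genes did, more of them in Cx than in OM. In Cx the SD of log2 CPM around the group means was 0.85 for *Per1*, 0.77 for *Arntl*, 0.58 for *Npas2*, 0.54 for *Dbp* and 0.53 for *Cry1*, against a median of 0.18 over 14068 genes, and 97.5% of genes had a smaller SD than *Per1*. *Clock* was the steadiest member in Cx, at 0.15. In OM, where all genes spread more (median 0.38), the SD was 0.96 for *Per1*, 0.85 for *Dbp* and 0.69 for *Npas2*. Below that median lay *Per3* (0.37), *Nr1d1* (0.34) and *Nr1d2* (0.17). The OM SD of *Dbp* was 1.42 within HS14, where replicate 10 was lowest at 18.4 CPM, against 0.24 on LS and 0.31 at HS21.

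For most members these deviations were shared by Cx and OM libraries of the same number. The study dissected 5 kidneys per group into Cx and OM, so both tissues of a group came from the same kidneys. The labels number the libraries 1 to 15 in both tissues, without saying that equal numbers mark the same kidney. For *Nr1d1* the deviations from the group means had a Pearson r of 0.968 and a Spearman rho of 0.946 over the 15 numbers (permutation *P* adjusted over the 10 members 1e-04 and 0.00025), with the unadjusted Pearson *P* of 1e-05 the smallest that 100000 re-pairings within diet groups can give. For *Per1* r was 0.937 and rho 0.925, for *Dbp* 0.894 and 0.843, for *Per2* 0.882 and 0.732, for *Arntl* 0.849 and 0.814, for *Nr1d2* 0.732 and 0.804 and for *Cry1* 0.692 and 0.661, with adjusted permutation *P* from 0.00025 to 0.0310. These 6 relations and that of *Nr1d1* remained positive without the 2 numbers farthest from the Cx median, with r from 0.501 for *Cry1* to 0.934 for *Nr1d1*. *Per3* had r = 0.449 and rho = 0.514 (adjusted permutation *P* = 0.0371 and 0.0697), and without replicate 10 its adjusted permutation *P* was 0.131. *Npas2* (r = 0.315, rho = 0.168, adjusted permutation *P* = 0.279 and 0.628) and *Clock* (r = -0.23, rho = 0.118, adjusted permutation *P* = 0.589 and 0.723) did not pass, and the *Clock* value became 0.483 without replicate 10. The median r over 14068 genes was 0.111, and that of the 10 members was 0.790.

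**Figure D4:**
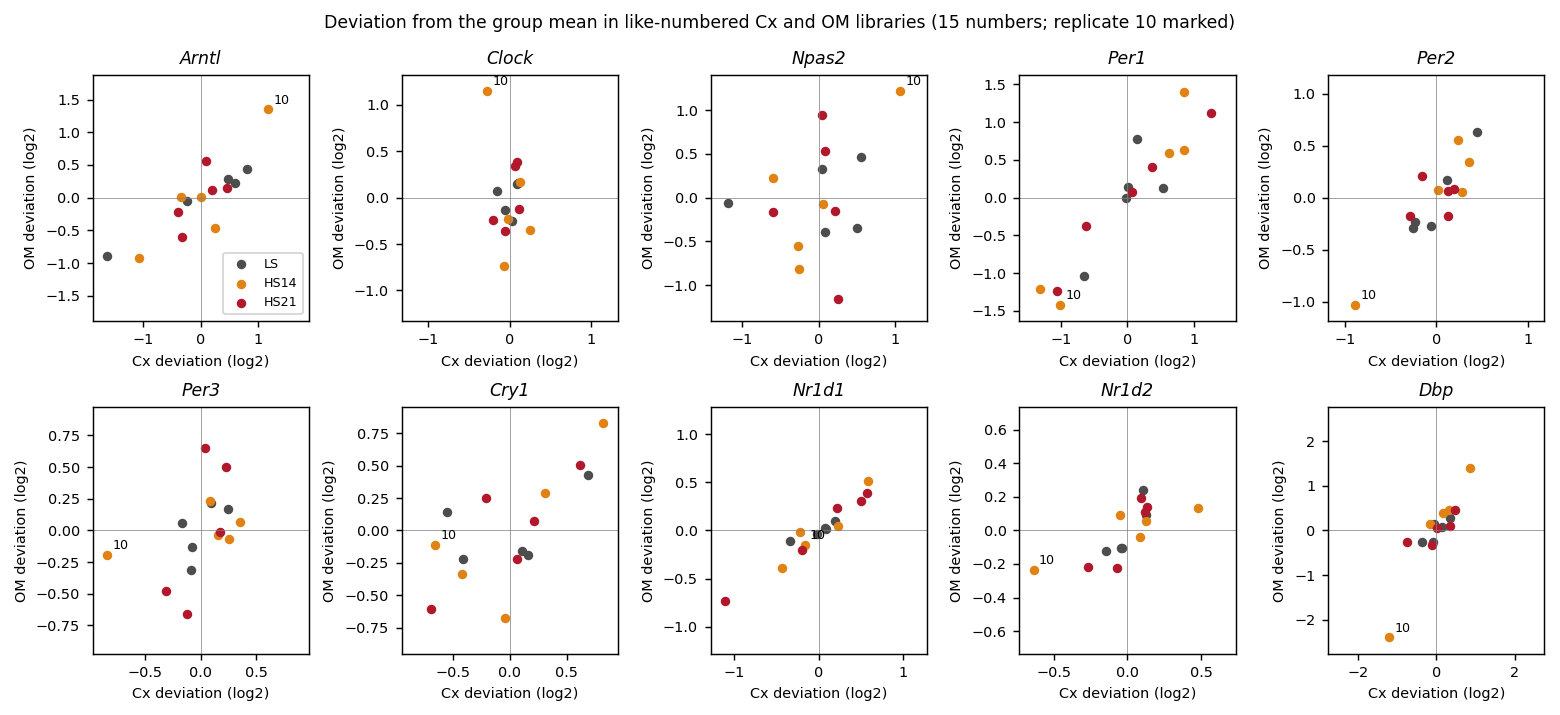
Deviation of log2 CPM from the group mean in the Cx library (x) and the OM library (y) of the same number, for each clock gene, with 15 points coloured by diet and replicate 10 marked. Nr1d1, Per1 and Dbp lie close to a rising line (r = 0.968, 0.937 and 0.894), while Clock and Npas2 scatter.

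Particular numbers stood out in both tissues. Replicate 10 (HS14) had the highest *Arntl* and *Npas2* of its group in Cx and OM and the lowest *Dbp* (60.4 and 18.4 CPM), *Per2* (53.4 and 37.0), *Per3* (25.3 and 41.4) and *Nr1d2* (90.3 and 119). The Cx library of that number also stood apart in its markers, with a proximal tubule sum of 11030 CPM against 14760 to 15017 in the other 4 HS14 libraries, a thick ascending limb sum of 2420 against 1357 to 1501, a distal convoluted tubule sum of 2240 against 1125 to 1332 and an intercalated cell sum of 1238 against 515 to 728. The OM library was the shallowest, and the part of composition and depth in these levels was not tested. Replicate 5 (LS) had the lowest *Arntl* of its group in both tissues (2.82 and 5.62 CPM) and the highest *Dbp*, *Per2* and *Cry1* of its group. Replicate 15 (HS21) had the highest *Per1* (222 and 244 CPM) and *Cry1* and the lowest *Nr1d1* (34.9 and 64.9). Replicate 7 (HS14) had the lowest *Arntl* of its group in both tissues (7.35 and 8.54 CPM) and the highest *Nr1d1*, *Nr1d2* and *Dbp*. In these 4 pairs *Arntl* and *Dbp* lay at opposite ends of their group in both tissues for 3 of them, namely replicates 5, 7 and 10.

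*Arntl* and the other members were then compared within each tissue, as deviations from the group means over 15 libraries, in 18 relations. The pattern above was seen in these same libraries, so the permutation *P* values below are descriptive and give it no independent support. *Arntl* fell where *Dbp* rose, with r = -0.77 and rho = -0.84 in Cx (adjusted permutation *P* = 0.00112 and 0.00162) and r = -0.82 and rho = -0.73 in OM (adjusted permutation *P* = 0.00932 and 0.0125). With *Nr1d2*, which represses *Arntl*, r was -0.76 and rho -0.82 in Cx and r -0.84 and rho -0.90 in OM (adjusted permutation *P* of 0.00166 or less). With *Per3* r was -0.75 and rho -0.82 in Cx and r -0.54 and rho -0.72 in OM (adjusted permutation *P* up to 0.0143). *Npas2* went the same way as *Arntl*, with r = 0.832 and rho = 0.654 in Cx and r = 0.701 and rho = 0.696 in OM (adjusted permutation *P* up to 0.0383). *Per2* passed in OM (r = -0.85, rho = -0.79, adjusted permutation *P* = 0.0120 and 0.00806) and missed in Cx (r = -0.65, rho = -0.59, adjusted permutation *P* = 0.0551 and 0.0665). The relations in Cx and OM are not independent of each other, since like-numbered libraries deviated together for most members.

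These 10 relations kept their sign without the numbers of the most extreme *Arntl* deviations. Without the 2 numbers farthest from the *Arntl* median (5 and 7 in Cx, 10 and 7 in OM), r was -0.79 and -0.53 for *Dbp*, -0.85 and -0.86 for *Nr1d2*, -0.79 and -0.64 for *Per3*, 0.760 and 0.456 for *Npas2* and -0.68 and -0.85 for *Per2*, in Cx and OM. Without number 10 alone, r in Cx and OM was -0.69 and -0.64 for *Dbp* and -0.70 and -0.83 for *Nr1d2*. It was -0.73 and -0.59 for *Per3*, 0.771 and 0.514 for *Npas2* and -0.48 and -0.69 for *Per2*. *Clock*, *Per1*, *Cry1* and *Nr1d1* had r between -0.37 and 0.607 to *Arntl*, and none of their 8 relations passed the adjustment. For *Nr1d1*, whose protein represses *Arntl* as that of *Nr1d2* does, r was -0.15 in Cx and -0.10 in OM. For *Clock* in OM, r fell from 0.607 to -0.07 without numbers 10 and 7.

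**Figure D5:**
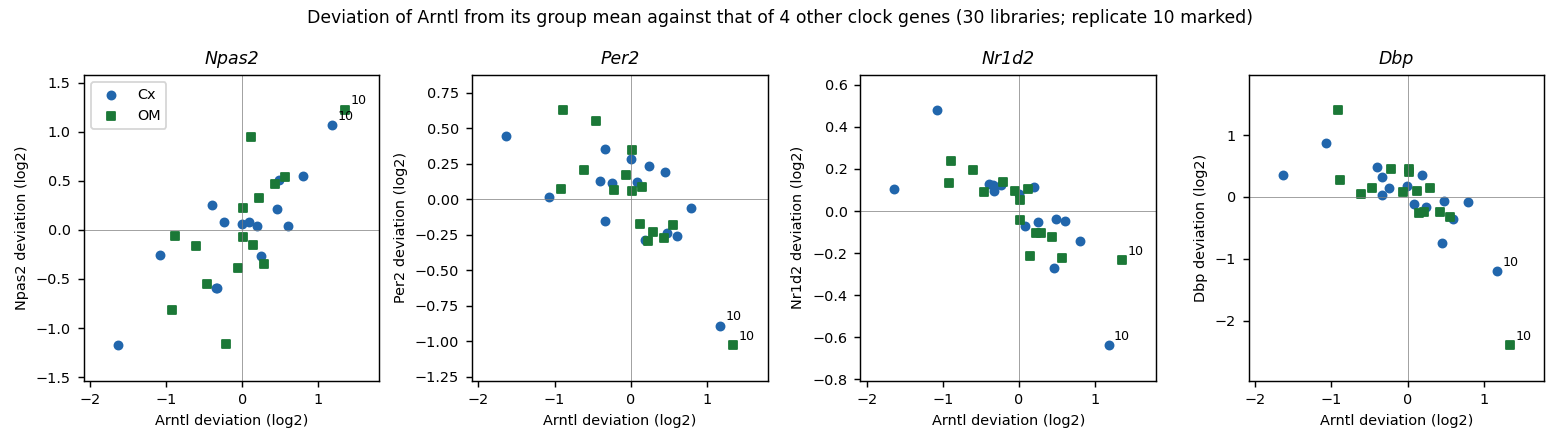
Deviation of Arntl from its group mean (x, log2) against that of Npas2, Per2, Nr1d2 and Dbp (y, log2), in 15 Cx (circles) and 15 OM libraries (squares), with replicate 10 marked. Npas2 rises with Arntl, and Per2, Nr1d2 and Dbp fall, with r of -0.76 and -0.84 for Nr1d2 in Cx and OM.

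Among 14068 genes over the 30 libraries, the gene most like *Arntl* in its deviations was another member, *Npas2* (r = 0.754), and of the 5 most opposite 3 were members. The next most alike were *Ehbp1* (r = 0.673), *Cntln* (0.671), *Acpp* (0.663) and *LOC100364791* (0.655). The most opposite were *Ciart* (r = -0.84), *Nr1d2* (-0.79), *Dbp* (-0.76), *Khdrbs1* (-0.75) and *Per2* (-0.73). *Ciart* encodes a circadian repressor that, like PER and CRY, acts on the ARNTL and CLOCK pair. Without replicate 10 these r values ranged from 0.490 to 0.629 for the alike and from -0.78 to -0.55 for the opposite genes. The genes were picked with replicate 10 included, and the ranking was not made again without it. The 30 points are not independent, since like-numbered libraries of Cx and OM deviated together.

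Of 12 other genes listed with the clock, not all of them core members, 9 were tested, and few were called. The 2 called at HS21 against LS and the 1 called against HS14 stand beside background shares of 39.4% and 16.2%. In Cx at HS21 against LS *Bhlhe40* (an E-box repressor) fell by 0.48 on the log2 scale (adjusted *P* = 0.00256, edgeR) and *Timeless* rose by 0.40 (adjusted *P* = 0.0307). *Ciart* rose at HS21 against HS14, with a log2 ratio of 2.06 ± 0.43 (adjusted *P* = 0.0128, edgeR) and means of 4.62 ± 2.95 CPM on LS, 2.11 ± 1.46 at HS14 and 8.69 ± 2.21 at HS21 (SD, n = 5). The median log2 ratio of the list was 0.13 and 0.28 in these comparisons, against 0.00 and 0.01 over all genes. None of the list was called at HS14 in Cx or in any OM diet comparison.

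Enzymes that modify clock proteins were called in both directions. In Cx at HS21 against LS 2 of 14 tested rose and 5 fell (background 18.9% and 20.5%), with the smallest adjusted *P* for *Gsk3b* (a kinase of several clock proteins, -0.49 ± 0.07, adjusted *P* = 0.000321), *Fbxw11* (a ubiquitin ligase subunit that targets PER, -0.27 ± 0.04, adjusted *P* = 0.000542) and *Csnk1e* (a PER kinase, 0.53 ± 0.09, adjusted *P* = 0.00114, edgeR). Against HS14 1 rose and 4 fell, led by *Prkaa2* (a catalytic subunit of AMP-activated kinase, which marks CRY for degradation; -1.10 ± 0.22, adjusted *P* = 0.0118, edgeR), *Csnk2a1* (-0.24 ± 0.05) and *Csnk1e* (0.35 ± 0.09). The list's median log2 ratio was -0.02 and -0.04, close to that of all genes.

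Kidney transport and signal genes described elsewhere as clock regulated rose in Cx at HS21 against LS in 9 of 11 cases, with a median log2 ratio of 0.80 against 0.00 over all genes, at a background of 18.9% of all genes raised. The smallest adjusted *P* belonged to *Scnn1a* (the alpha subunit of the epithelial sodium channel; 0.82 ± 0.07, adjusted *P* = 1.56e-05), *Aqp2* (the vasopressin-regulated water channel; 1.10 ± 0.16, adjusted *P* = 0.000402) and *Fxyd5* (a regulator of the sodium pump; 1.23 ± 0.22, adjusted *P* = 0.00110, edgeR). The other 6 that rose were *Avpr2*, *Slc12a3*, *Wnk4*, *Aqp4*, *Wnk1* and *Edn1*. Most of these 9 genes are known mainly from segments beyond the proximal tubule, and *Aqp2* and *Slc12a3* are themselves among the markers of those segments. The proximal tubule sum was lower in Cx HS21, while sums of thick ascending limb, distal convoluted tubule, collecting duct principal and intercalated cell markers were higher (2035 to 2805, 1489 to 2805, 391 to 738 and 743 to 1145 CPM, against 1175 to 1815, 1027 to 1250, 292 to 377 and 508 to 642 on LS), and the part of this in the counts was not tested. *Aqp2* was the one gene of the list called at HS14 (0.83 ± 0.17, adjusted *P* = 0.0331, edgeR), and between HS21 and HS14 *Scnn1a* and *Fxyd5* rose and *Slc9a3* fell. In OM none of the 11 was called in any diet comparison, and their median log2 ratio at HS21 against LS was -0.06.

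Genes that respond to glucocorticoids, hormones with a daily rhythm that act on *Per1*, were also read. In Cx at HS21 against LS 4 of 9 rose and 1 fell, at background shares of 18.9% raised and 20.5% lowered. Among those that rose were *Tsc22d3* (1.42 ± 0.35, adjusted *P* = 0.00729) and *Zbtb16* (0.83 ± 0.24, adjusted *P* = 0.0160), while *Klf9* fell (-0.57 ± 0.10, adjusted *P* = 0.00128, edgeR), with a list median of 0.45. Of 8 immediate early genes, which mark acute stimulation at collection, *Jun* was the one called (-0.45 ± 0.15, adjusted *P* = 0.0270, edgeR), and it was lower, at the same background shares. The median log2 ratio of these 8 genes was -0.31 there and, in OM, -1.22 at HS21 against LS and -2.17 against HS14, with none called. No gene of these 2 lists was called in any other diet comparison in Cx or OM.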

How the data were processed

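mRNAseq was done on 30 libraries, grouped by tissue and diet from their labels. The deposited counts are whole read numbers per Ensembl gene without normalization, made by the authors from poly(A)-selected, unstranded, paired-end reads aligned to Rnor_6.0 with HISAT2 2.0.5 and counted with featureCounts 1.5.0-p3, as the submitters' processing notes and the methods supplement state. Those notes also name StringTie 1.3.3b. The FPKM values were deposited by the authors and were used for levels between genes only. The same table holds the authors' DESeq2 output (group means, fold changes, p-values), which was not used.

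Counts were tested with edgeR 4.0.16 in R 4.3.3 (filterByExpr, TMM, quasi-likelihood F-test, no covariates) on the 10 libraries compared, with Benjamini-Hochberg adjustment over all genes tested. CPM and log2 CPM (prior count 2) used TMM over the 30 libraries. Alternatives were DESeq2 1.42.0 (independent filtering off), its size factors within edgeR, total-count scaling, no low-count filter, a fit of all libraries of a tissue, a block on the replicate number and each library left out. A gene's adjusted *P* refers to edgeR unless another tool is named. Scripts were tested on simulated data. In 60 library pairs of the groups the differences were at least 6.93 times counting noise, so none was a copy.

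The members and gene lists were chosen with earlier results of these data known. Named were the 10 members, up to 3 called genes per list and diet comparison with the smallest adjusted *P* (others are named where a count was spelled out), and the 5 genes most and least like *Arntl* by Pearson r among genes of at least 1 mean CPM. *Fbxl21* and *Ier2* of the lists were not found under these symbols. Promoter sequence is from RefSeq GRCr8, and gene counts are from Rnor_6.0, without conversion of coordinates. Precision was limited by 5 libraries per group. The study states 5 kidneys per group, each dissected into Cx and OM, and does not say which libraries share a kidney.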

Additional observations from a re-analysis of the deposited data

Results flagged for a closer look

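In 60 sets of 5 libraries (10 members in 6 groups), 3 libraries lay far from the rest of their group on the log2 scale by Dixon's ratio of the gap to the whole range, for which 0.71 is the critical value and chance gives about 1 in 20. These were *Npas2* in replicate 11 of Cx HS21 (3.56 CPM, next 5.58; ratio 0.746), *Per2* in replicate 10 of Cx HS14 (53.4 CPM, next 100; ratio 0.730) and *Per3* in the same library (25.3 CPM, next 48.3; ratio 0.778). The call of *Per3* at Cx HS21 against HS14 held without replicate 10.

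The change from LS differed between HS21 and HS14 in Cx, tested as HS21 against HS14 by edgeR, for *Arntl* (-1.90 on the log2 scale), *Clock* (-0.87), *Npas2* (-1.58), *Per2* (0.68) and *Per3* (0.92). For *Per2* that call was lost in 8 of 10 fits with 1 library left out (adjusted *P* up to 0.0871), and it remained without HS14 replicate 10 or HS21 replicate 12.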

How the results depend on the processing

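In 660 refits of 44 log2 ratios (all members in Cx HS21 against LS and HS14, elsewhere those at an unadjusted *P* under 0.05), 590 kept their direction and side of the threshold, 38 lost and 28 gained a call, and 4 changed sign. Over all 90 ratios of the 10 members in the 9 diet and tissue comparisons, 51 of 1350 refits changed sign, in 22 ratios of at most 0.286 in size, none of them called in either fit. Under total-count scaling the median of all genes moved to 0.13 in both Cx comparisons with HS21, and *Nr1d2* against LS became 0.0328 and *Nr1d1* against HS14 0.0255 (-0.10 for *Nr1d2* relative to that median). The latter ran from -0.23 to 0.11 with 1 library left out. Members called were then 6 at Cx HS21 against LS and 6 against HS14, and OM against Cx gave 5 on LS and 2 at HS14, with medians of all genes at 0.27 and 0.21. DESeq2's Wald test called 2 members in each OM diet comparison and 2 between OM and Cx at HS21. Leaving out 1 library gave 0 to 1 members at Cx HS14 against LS (*Nr1d1* without Cx HS14 replicate 7), 3 to 6 at Cx HS21 against LS and 4 to 5 against HS14. At OM HS21 against LS it gave 0 to 2 (2 without OM LS replicate 5). For OM against Cx it gave 2 to 5 on LS, 0 to 1 at HS14 and 1 to 2 at HS21 (2 without OM HS21 replicate 12, where *Npas2* joined *Clock*). Shared deviations of Cx and OM were read again only without number 10 or number 2, each with both its libraries. There 7 to 8 members passed. The fewest at Cx HS21 against LS, 3, came without LS replicate 1, 2 or 3 or HS21 replicate 14. Both interactions stayed at 0 members in all fits, and the cause of these shifts was not tested.

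With the replicate number as a block, 6 members were called between OM and Cx on LS, 2 at HS14 and 3 at HS21, and none in the interactions. In the check of this pairing, 12 of 15 like-numbered Cx and OM libraries had deviations correlated above 0.1 over 14068 genes (-0.08 to 0.51), and 13 of 15 matched their own number best in their diet group. Not every pair was above 0.1 and no source ties a number to a kidney, so fits without the block were kept as the first ones, although most pairs deviated together. Counts of members went down to 17 per library (*Npas2*), where counting error is largest relative to the level.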
